A study of Mus musculus with 4 samples.

Results

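The genes described here are 10 lysosomal genes of the mouse: the cathepsins Ctss, Ctsb, Ctsd, Ctsl, Ctsz, Ctsc and Ctsw, the cathepsin inhibitor Cst3, the granulin precursor Grn and the membrane protein Lamp1. They were taken by name from the 31053 genes counted, and their levels were read in 6 classes of cells: microglia, macrophages at the borders of the brain, natural killer (NK) cells, T cells, B cells and myeloid cells of the spleen. The study profiled single cells of 4 sources, aged brain, aged spleen, young brain and young spleen, with 1 droplet library each. Cells had been sorted for a high level of CD45, the surface marker of blood-derived cells, and the labels name a 10x Genomics 3' v2 kit, whereas the barcode list of the matrices, with 6794880 entries, has the length of the list of the v3 kit. The protocol shared by the 4 libraries says that mice received Tamoxifen and that tissues were taken 4 weeks later to measure tdTomato+ NK cells, so the aged and the young groups carry the same treatment as far as the labels tell. The labels do not give the ages in weeks, the strain, the Cre driver or the number of mice pooled. With 1 library per group no difference between groups could be tested against the spread between animals, and every interval below is an exact 95% interval that covers counting error only; reads that share a molecular identifier were already merged into 1 unique molecular identifier (UMI).

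Cathepsins are proteases that are made as inactive precursors, sorted to the lysosome and activated at its acid pH, where they digest proteins taken up or recycled by the cell. Most are cysteine proteases (Ctss, Ctsb, Ctsl, Ctsz, Ctsc, Ctsw), while Ctsd is an aspartic protease, and cystatins such as Cst3 are secreted inhibitors of the cysteine type. Macrophages, microglia included, carry large amounts of these enzymes because they clear dead cells and debris, whereas cytotoxic lymphocytes use a small set of them to build their lytic granules.

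The libraries held between 26384220 and 57011537 UMIs, and 10243 (aged brain), 5265 (aged spleen), 8108 (young brain) and 6347 (young spleen) cells remained after filtering. The labels call all cells neuroblasts, but the 11 neuronal and neuroblast markers summed to only 24.1 counts per 1000000 UMIs (CPM) among aged and 26.2 in young brain cells and 1.97 and 0.953 in the aged and young spleen, and Dcx had 0 UMIs in 3 of 4 libraries. The tissue labels matched the markers: 12 microglial markers summed to 18332 and 22941 CPM in the aged and young brain against 15.5 and 32.6 in the spleens, and 12 B cell markers did the reverse. The young brain library stood apart: 4418 of its cell barcodes were also cells of the aged spleen, where 6.28 would be shared by chance with a list of that length, and 4417 of them held more UMIs in the aged spleen. All young brain barcodes with more UMIs in the aged spleen were left out, which left 3380 cells, and of the barcodes left out 0 were microglia-like and 1 was border macrophage-like. In the aged spleen the shared barcodes were kept, since they held more UMIs there, and they make up most of its lymphocytes (746 of 816 NK-like, 1565 of 1698 T-like and 1723 of 1919 B-like cells), so spleen ratios are also given without them. Classes come from clustering without the 10 genes, are named from markers and carry the ending "-like". Microglia-like cells fell mostly into cluster 0 in the aged brain (5884 of 6252 cells) and cluster 2 in the young brain (2879 of 3062), so that cluster and library can hardly be told apart.

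Levels are given as CPM over all UMIs of a class in a library, and are compared between cells and not between genes. In 9 of the 10 genes the highest level of all classes was in a brain macrophage class, and Ctsw, highest in NK-like cells, was the exception. Among the cells counted were 6252 and 3062 microglia-like and 837 and 189 border macrophage-like cells (aged and young brain), and 816 and 1836 NK-like, 1698 and 1669 T-like, 1919 and 2369 B-like and 157 and 230 myeloid cells (aged and young spleen). The aged brain also held 86 NK-like, 27 T-like and 2 B-like cells, and the young brain 15 NK-like, 4 T-like and 0 B-like cells.

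**Figure D1:**
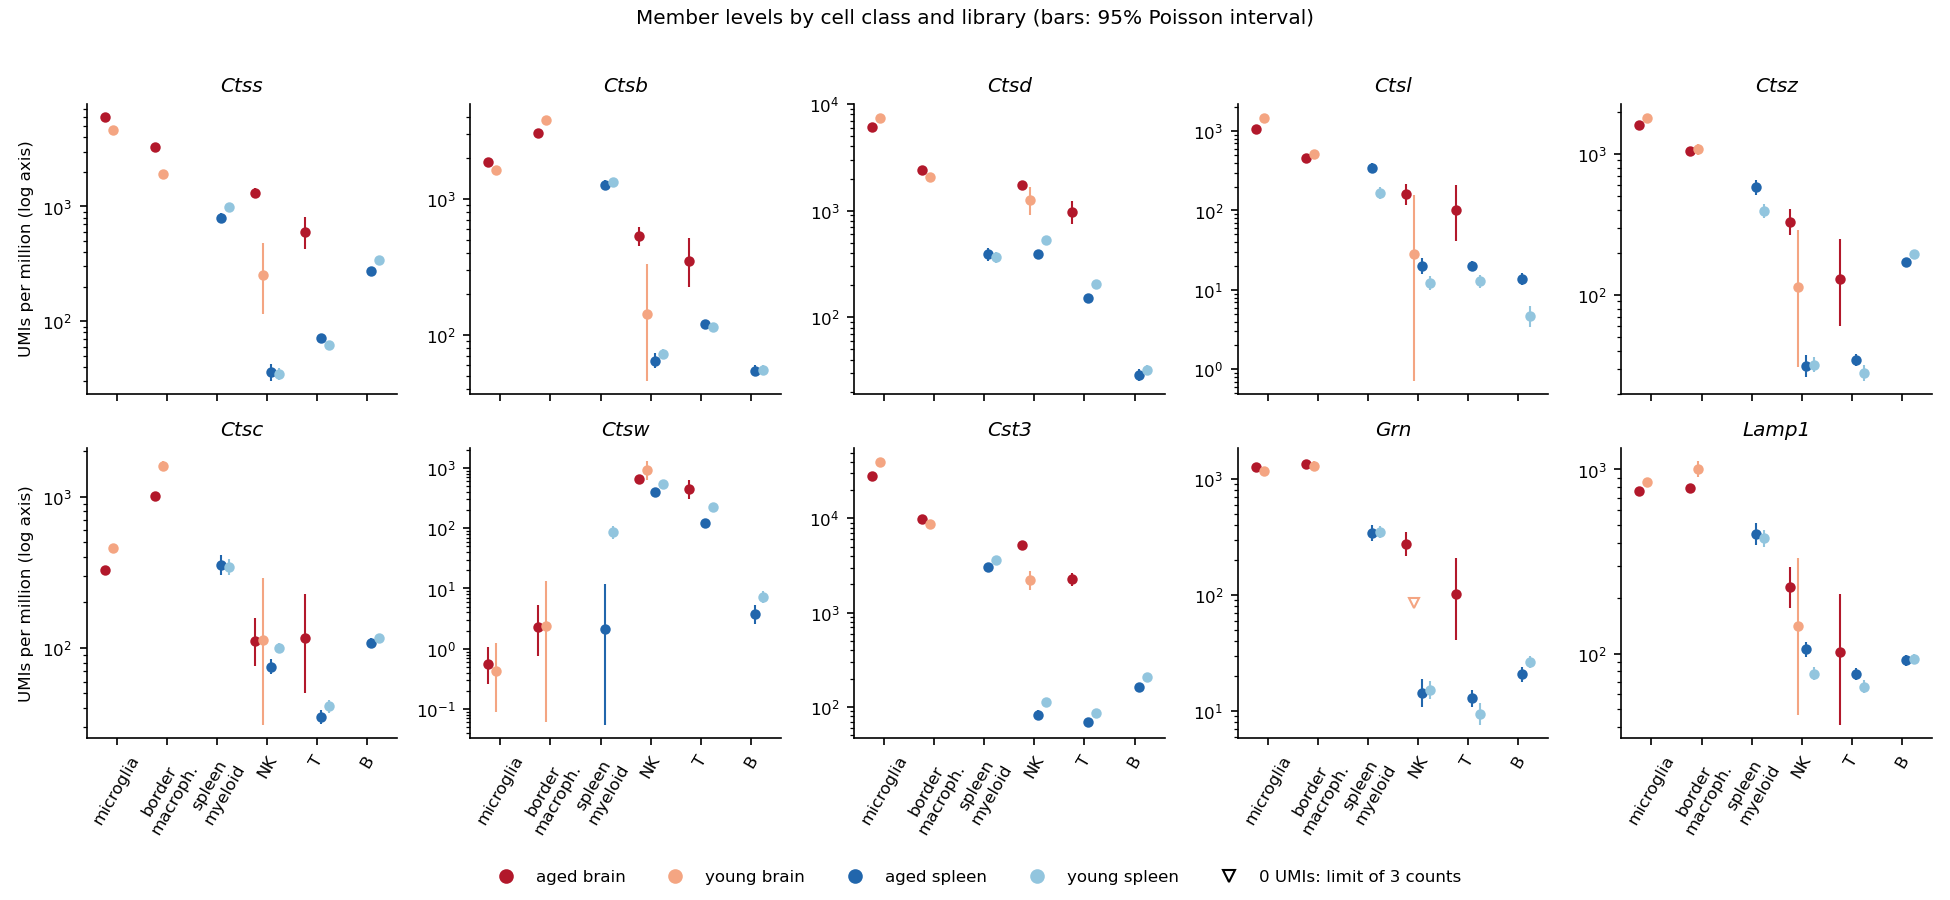
Levels of the 10 genes in CPM (log axis) in each cell class and library, with 95% Poisson intervals as bars and an open triangle for the limit that 0 UMIs allow. Ctsw is the one gene at its highest in NK-like cells, whereas the other 9 peak in microglia-like or border macrophage-like cells.

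Cst3 encodes cystatin C, the secreted inhibitor of cysteine cathepsins (chr2:148871722-148875692, minus strand; this and all positions below are those of protein-coding genes in GRCm38 with GENCODE M21). Microglia-like cells held Cst3 at 27936 (27854 to 28018) CPM in the aged brain and 40129 (39980.0 to 40278) in the young one. Border macrophage-like cells held 9845 and 8721, and the spleen myeloid class 3038 and 3600.4. B-like, NK-like and T-like cells of the aged spleen followed with 162, 82.6 and 69.3 CPM. The order microglia, border macrophages, spleen myeloid cells, lymphocytes held in both ages. Within the spleen myeloid class Cst3 was highest in 2 sub-clusters without a class name of their own. A sub-cluster led by Fscn1, Apol7c and Cxcl16 had 10663 and 15301 CPM (16 aged and 11 young cells), and one led by Ppp1r14a, Ifitm1 and Dtx1, which also carried Wdfy4, had 5218 and 13770.3 (63 and 36 cells).

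Ctss encodes cathepsin S, which trims the invariant chain from MHC class II molecules and stays active near neutral pH (chr3:95526786-95556403, plus strand). Its level was 5961 (5923 to 5999) CPM in aged and 4636 (4585 to 4687) in young microglia-like cells, 3327 and 1912 in border macrophage-like cells, and 794 and 999 in aged and young spleen myeloid cells. B-like cells, which present antigen on MHC class II, held 276 and 339 CPM, against 71.0 and 62.4 in T-like and 36.0 and 34.6 in NK-like cells of the spleen. The Ctss promoter (RefSeq, GRCm38.p6, printed from 250 bases before to 30 after the start site, chr3:95526536-95526815, plus strand, and searched to 50 after it) is shown because Ctss is the member whose level was higher in every aged brain macrophage cluster; capitals mark its 1 match to GAGGAAGT, the core bound by the myeloid factor PU.1, which lies on the reverse strand and reads ACTTCCTC here.
Ctss promoter: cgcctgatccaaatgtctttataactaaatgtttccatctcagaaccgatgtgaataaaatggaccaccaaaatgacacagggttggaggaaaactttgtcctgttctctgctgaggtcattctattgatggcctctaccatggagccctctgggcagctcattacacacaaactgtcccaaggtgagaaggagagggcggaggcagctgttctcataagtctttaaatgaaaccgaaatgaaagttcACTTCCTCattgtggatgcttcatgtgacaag
Both strands were searched, and 3.20% of 32841 mouse promoters of this length hold a match. Ctsc held 1 match as well and the other 6 of the 8 members with a promoter in the table held none. A match is only a stretch of letters, and no binding was measured here.

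Ctsb, cathepsin B, is a cysteine protease that also cleaves from the end of its substrates (chr14:63122462-63145923, plus strand). It differed from Ctss in being higher in border macrophage-like cells, at 3055 (2982 to 3129) CPM in the aged brain and 3794 (3610.4 to 3984) in the young one, than in microglia-like cells, at 1861 and 1619. Spleen myeloid cells held 1262 and 1330.4 CPM, and the spleen lymphocyte classes lay between 54.7 (aged B-like) and 121 (aged T-like). In the red pulp macrophage-like cells, which take up old red blood cells, Ctsb reached 5291 and 4740.0 CPM (54 aged and 106 young cells, without a sub-cluster led by NK genes), above its level in both brain macrophage classes.

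Ctsc, cathepsin C or dipeptidyl peptidase 1, activates the granzymes and neutrophil serine proteases (chr7:88278085-88310888, plus strand). It shared the pattern of Ctsb among brain macrophages, with 1011 and 1590.5 CPM in aged and young border macrophage-like cells against 326 and 458 in microglia-like cells. Spleen myeloid cells held 356 and 343 CPM. B-like cells of the spleen were higher than NK-like cells, at 109 and 75.2 in the aged and 117 and 100.1 in the young spleen, and T-like cells were lower, at 35.1 and 41.2.

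Ctsl, cathepsin L (chr13:64359337-64370890, minus strand), an endopeptidase with broad specificity, and Ctsz, cathepsin Z, a carboxypeptidase (chr2:174427493-174439039, minus strand), were both higher in microglia-like than in border macrophage-like cells. For Ctsl the aged and young values were 1068 and 1465 CPM in microglia-like, 453 and 509 in border macrophage-like and 343 and 166 in spleen myeloid cells. Ctsz stood at 1593 and 1791, 1053 and 1079, and 579.6 and 392 in the same classes. Spleen lymphocytes separated these 2 genes. B-like cells held Ctsz at 172 and 195 CPM, above the 28.0 to 34.6 of T-like and NK-like cells. Ctsl was at most 20.01 CPM in any spleen lymphocyte class.

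Ctsd encodes cathepsin D, the main aspartic protease of the lysosome (chr7:142375911-142388038, minus strand). It was highest in microglia-like cells, at 6045 (6007 to 6084) CPM in the aged brain and 7464 (7399.6 to 7528) in the young one, and lower in border macrophage-like cells, at 2424 and 2085. Unlike the other broadly expressed members it was not higher in spleen myeloid than in NK-like cells: the former held 389 (334 to 449) and 367 (326 to 413) CPM in the aged and young spleen, the latter 389.9 (371 to 409.9) and 526 (509.7 to 542). The 2 classes did not differ beyond counting error in the aged spleen, and NK-like cells were higher in the young spleen. The spleen myeloid value joins unlike clusters, however. Its red pulp macrophage-like cluster held Ctsd at 1310 and 953 CPM in the aged and young spleen, above NK-like cells. Its monocyte-like cluster held 271 and 102 CPM, below them. T-like cells held 150.1 and 205 and B-like cells 28.8 and 32.0 CPM.

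Lamp1, a heavily glycosylated protein that lines the lysosomal membrane and marks degranulating cytotoxic cells (chr8:13159161-13175338, plus strand), had 768 and 851 CPM in aged and young microglia-like cells and 793 and 1006 in border macrophage-like cells. Spleen myeloid cells held 447 and 423, and all spleen lymphocyte classes stood between 66.0 and 105 CPM. The promoters of Lamp1 (chr8:13158911-13159190, plus strand) and Ctsd (chr7:142387798-142388077, minus strand) are shown because they hold more than 1 copy of CACGTG, the core of the CLEAR element that the lysosomal regulator TFEB recognises; capitals mark each copy, and the motif reads the same on both strands.
Lamp1 promoter: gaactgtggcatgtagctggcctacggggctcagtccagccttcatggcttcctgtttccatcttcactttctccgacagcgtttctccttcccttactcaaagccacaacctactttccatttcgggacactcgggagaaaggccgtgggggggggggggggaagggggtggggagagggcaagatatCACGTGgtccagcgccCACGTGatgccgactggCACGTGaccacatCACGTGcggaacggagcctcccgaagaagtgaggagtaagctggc
Ctsd promoter: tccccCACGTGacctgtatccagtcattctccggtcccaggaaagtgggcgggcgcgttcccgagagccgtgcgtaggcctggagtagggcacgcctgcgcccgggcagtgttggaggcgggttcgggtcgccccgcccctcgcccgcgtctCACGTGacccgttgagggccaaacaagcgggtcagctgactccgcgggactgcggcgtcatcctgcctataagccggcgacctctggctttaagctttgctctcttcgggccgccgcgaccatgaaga
Lamp1 carried 4 copies, starting 61, 45, 28 and 15 bases before the start site, and Ctsd 2, starting 245 and 98 bases before it, while Ctsl carried 1 and the other 5 members with a promoter in the table none. Of 32841 promoters of the same length 7.15% held at least 1 copy. In microglia-like cells all 3 members with a copy had aged to young ratios below 1, as did 3 members without one, and in spleen NK-like cells Lamp1 and Ctsd lay on opposite sides of 1 (values below).

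Grn encodes progranulin, a secreted and lysosomal protein that is cut into granulins and helps cathepsin D mature (chr11:102430315-102437048, plus strand). Its level in microglia-like cells, 1278 CPM in the aged brain and 1171 in the young one, was close to that in border macrophage-like cells, 1344 and 1304. Spleen myeloid cells held 341 and 352, and spleen lymphocytes 9.49 (young T-like) to 26.5 (young B-like) CPM.

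Ctsw, cathepsin W or lymphopain, is a cathepsin of cytotoxic lymphocytes whose function is not settled (chr19:5465043-5468507, minus strand). NK-like cells held Ctsw at 405 (385 to 425) CPM in aged and 540.2 (524 to 557) in young spleen, T-like cells at 121 and 227, and B-like cells at 3.77 and 7.34. Microglia-like cells had 9 UMIs in the aged brain and 3 in the young one, which is 0.562 and 0.433 CPM. With every cell thinned to 1000 UMIs, 34.2% of aged and 41.6% of young spleen NK-like cells had a Ctsw UMI, against 0.474% and 0.856% of B-like cells, which serve as the background; without thinning the shares were 82.7% and 86.1% against 1.62% and 2.91%, at median depths of 4648 and 4050.5 UMIs in NK-like and 4157 and 3775 in B-like cells. The B-like level was no higher than ambient RNA sets (below), so among the classes compared Ctsw was a gene of NK-like and T-like cells, apart from 66 UMIs in young spleen myeloid cells that are taken up below. Outside these classes, an unnamed cluster of cycling cells held Ctsw at 26.1 and 107 CPM in the aged and young spleen (38 and 57 UMIs).

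Aged and young microglia-like cells were compared to see which members differ with age in the resident macrophages of the brain. Ctss, Ctsb and Grn were higher in the aged library, and Cst3, Ctsc, Ctsl, Ctsd, Ctsz and Lamp1 lower, each with an interval of the ratio that leaves out 1. A gene counts as past the threshold when its ratio reaches 1.5-fold in either direction, its interval leaves out 1 and it has at least 50 UMIs over both libraries. By this rule 0 of the 9 members with enough UMIs passed, where 15.8% of all 11029 genes did; Ctsw, with 12 UMIs, was not compared. The median log2 ratio of the 9 was -0.17, beside 0.09 over all genes.

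The lowest ratios of aged to young were those of Cst3, at 0.696 (0.693 to 0.699), Ctsc, at 0.711 (0.680 to 0.743), and Ctsl, at 0.729 (0.711 to 0.747). Ctsd followed with 0.810 (0.801 to 0.819), Ctsz with 0.889 (0.870 to 0.909) and Lamp1 with 0.902 (0.874 to 0.931). In the other direction stood Ctss, at 1.29 (1.27 to 1.3), Ctsb, at 1.15 (1.12 to 1.17), and Grn, at 1.09 (1.06 to 1.12). The inhibitor Cst3 and the protease Ctss thus lay on opposite sides of 1 in the same cells. Single cells showed the same shift of both genes. Of 1000 UMIs per cell, the median aged microglia-like cell gave 27 to Cst3 (quartiles 21 and 33) and the median young cell 39 (quartiles 30 and 50). For Ctss the medians were 6 (quartiles 4 and 8) in aged and 4 (quartiles 3 and 6) in young cells, over 5883 and 2614 cells; 369 and 448 shallower cells were left out. The bulk of the cells of the 2 libraries overlapped for Ctss, and for Cst3 the aged upper quartile lay below the young median.

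Ribosomal protein genes made up 9.30% of the UMIs of aged and 6.75% of young microglia-like cells, and the 13 markers of choroid plexus and ependymal cells, of which 12 had a UMI in each library, summed to 4002 and 861 CPM. Their part in the ratios of the members was not tested. With the median-of-ratios scaling, which centres the ratios of all genes on 1, every ratio above was divided by 1.06, and Cst3, at 0.654, then passed 1.5-fold lower. No ratio of the 9 members crossed 1 under any of the 14 alternative settings, and Ctss ranged from 1.15 to 1.29 and Cst3 from 0.654 to 0.729.

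Cluster and library overlapped only in part, so the same comparison was made inside each brain cluster with at least 20 cells in both libraries. In cluster 0 (5884 aged and 87 young cells) Cst3 had an aged to young ratio of 0.729 (0.713 to 0.746), in cluster 2 (268 and 2879 cells) of 0.681 (0.670 to 0.692) and in cluster 19 (100 and 96 cells) of 0.634 (0.615 to 0.655). Ctss had 1.15 (1.08 to 1.22), 1.23 (1.19 to 1.28) and 1.23 (1.15 to 1.31) in the same clusters. Cluster 19 is a small microglia-like cluster led by Lpl, Cxcl10, Ccl12, Ifit3 and Spp1, a mixture of lipid-handling and interferon-response genes. In it Ctsb stood at 3153 CPM in the aged brain and 2208 in the young one, a ratio of 1.43 (1.29 to 1.58), while clusters 0 and 2 gave 1.11 (0.992 to 1.24) and 1.08 (1.01 to 1.15). The young level of Ctsb was already higher in cluster 19 than in clusters 0 and 2 (1661 and 1593 CPM). Ctsd and Ctsl, lower in the aged cells of clusters 0 and 2 (Ctsd 0.761 and 0.765, Ctsl 0.705 and 0.727), had ratios of 0.981 (0.924 to 1.04) and 1.08 (0.947 to 1.23) in cluster 19, with intervals that include 1. Whether cluster 19 differed from the others in these ratios was not tested.

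**Figure D2:**
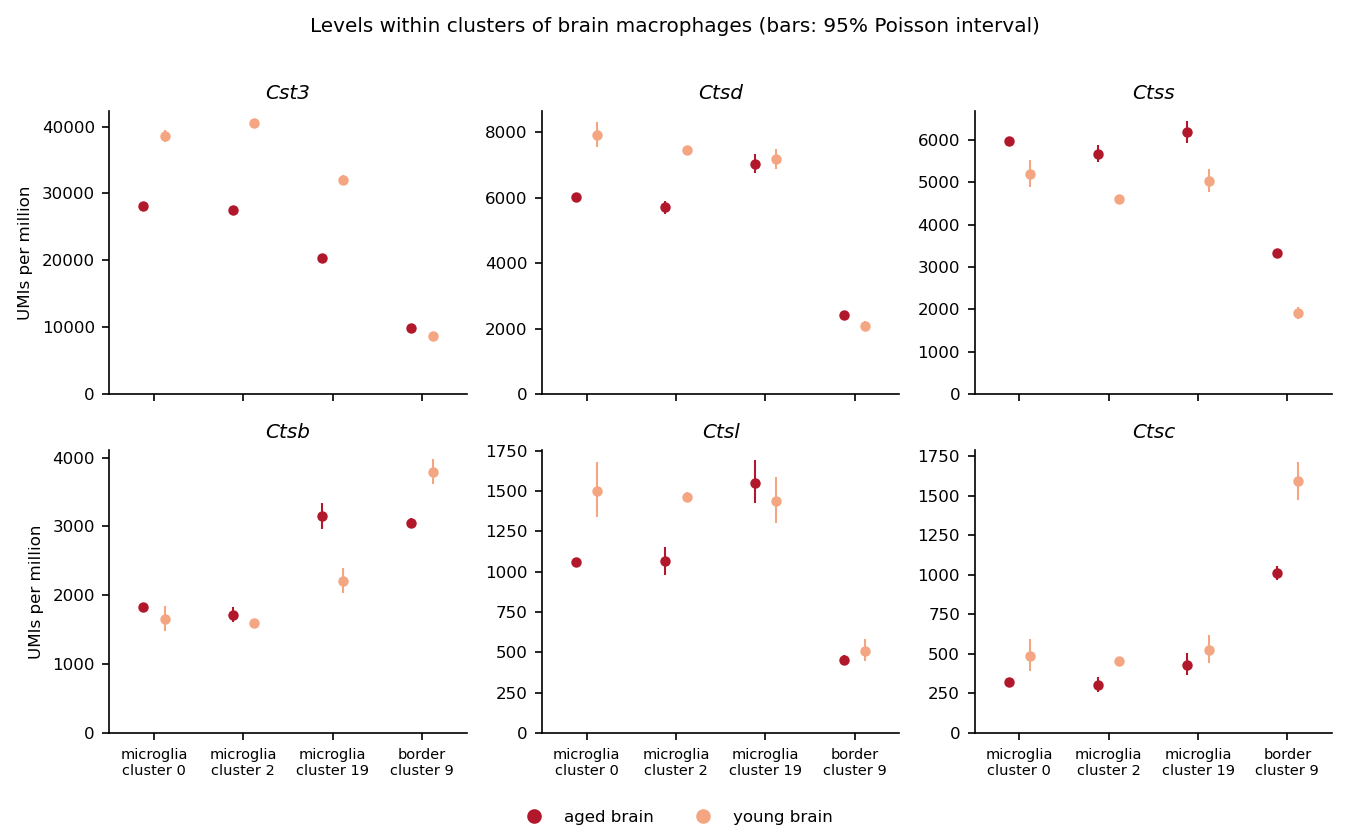
Levels of 6 members in CPM (linear axis from 0) in the 3 microglia-like clusters and the border macrophage-like cluster, aged and young brain side by side, with 95% Poisson intervals as bars. In each of the 3 microglia-like clusters Cst3 is lower and Ctss higher in the aged library, and in the border macrophage-like cluster Ctss is higher and Ctsc lower.

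Border macrophage-like cells (837 aged, 189 young), the macrophages of the meninges, perivascular space and choroid plexus, gave 2 of 9 members past 1.5-fold, where 16.5% of 6349 genes passed: Ctss higher and Ctsc lower in the aged brain. Ctss had 3327 CPM in the aged brain and 1912 in the young one, a ratio of 1.74 (1.62 to 1.87), and it kept a ratio of 1.62 to 1.84 over 12 alternative settings. Ctsc went from 1590.5 in the young to 1011 CPM in the aged brain, a ratio of 0.636 (0.583 to 0.694), with a range of 0.592 to 0.698. These are a protease of antigen presentation and an activator of other proteases, and they lay on opposite sides of 1 in this class. Ctsb and Lamp1 were lower in the aged library, at 0.805 (0.762 to 0.851) and 0.789 (0.709 to 0.879). Ctsd, at 1.16 (1.08 to 1.25), and Cst3, at 1.13 (1.09 to 1.17), were higher, and both came to just under 1 with a mitochondrial limit of 20%, at 0.999 and 0.999. Grn, Ctsz and Ctsl had intervals that include 1, at 1.03 (0.94 to 1.13), 0.976 (0.882 to 1.08) and 0.891 (0.768 to 1.04). The microglial markers summed to 7848 CPM in aged and 4743 in young border macrophage-like cells, and the 13 markers of border macrophages, none at 0, to 8775 and 13282; the part of this difference in the ratios was not tested. The median log2 ratio of the 9 members was -0.04, beside 0.05 over all genes.

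Ctss was the one member whose aged to young ratio lay above 1, interval included, in all 6 brain clusters that could be compared. Beside the 4 clusters of the named classes these were an unnamed cluster of shallow barcodes and an astrocyte-like cluster described in the closing section. The unnamed cluster had a median of 640 UMIs and scored highest for microglial markers (1.43). Its leading genes included Csmd3, and also Gm26778 and Mertk, which were among those of the microglia-like cluster 0. Its Ctss ratio was 1.67 (1.26 to 2.26) over 1832 aged and 29 young cells. Ctss made up 2776 CPM of the ambient RNA (barcodes with at most 100 UMIs) of the aged brain library, against 1189 for the young brain library. The part of ambient RNA in the ratios of the unnamed and the astrocyte-like cluster was not tested. Cst3 was above 1 in 2 of the 6 brain clusters and below 1 in 4.

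In the spleen the aged and young libraries were compared class by class, and 2 members were called in at least 3 of 4 classes. Ctsl was past 1.5-fold higher in the aged library in all 4, though in spleen myeloid cells 4 alternative settings turned its direction. In NK-like, T-like and B-like cells some settings ended the call. Ctsw was past 1.5-fold lower in T-like, B-like and spleen myeloid cells. In B-like cells, however, it stood at the level ambient RNA sets. In spleen myeloid cells most of its young UMIs came from a sub-cluster led by NK genes (values below). Of the 10 members, 1 passed in NK-like cells (where 16.2% of 9161 genes did), 2 in T-like cells (15.9% of 9870), 2 in B-like cells (13.7% of 9566) and 2 in spleen myeloid cells (14.6% of 3773). At 1 or 2 of 10, the members were called about as often as all genes. Median log2 ratios of the members were -0.12, 0.13, -0.17 and 0.01 in these classes, beside -0.12, -0.09, -0.13 and -0.01 over all genes.

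**Figure D3:**
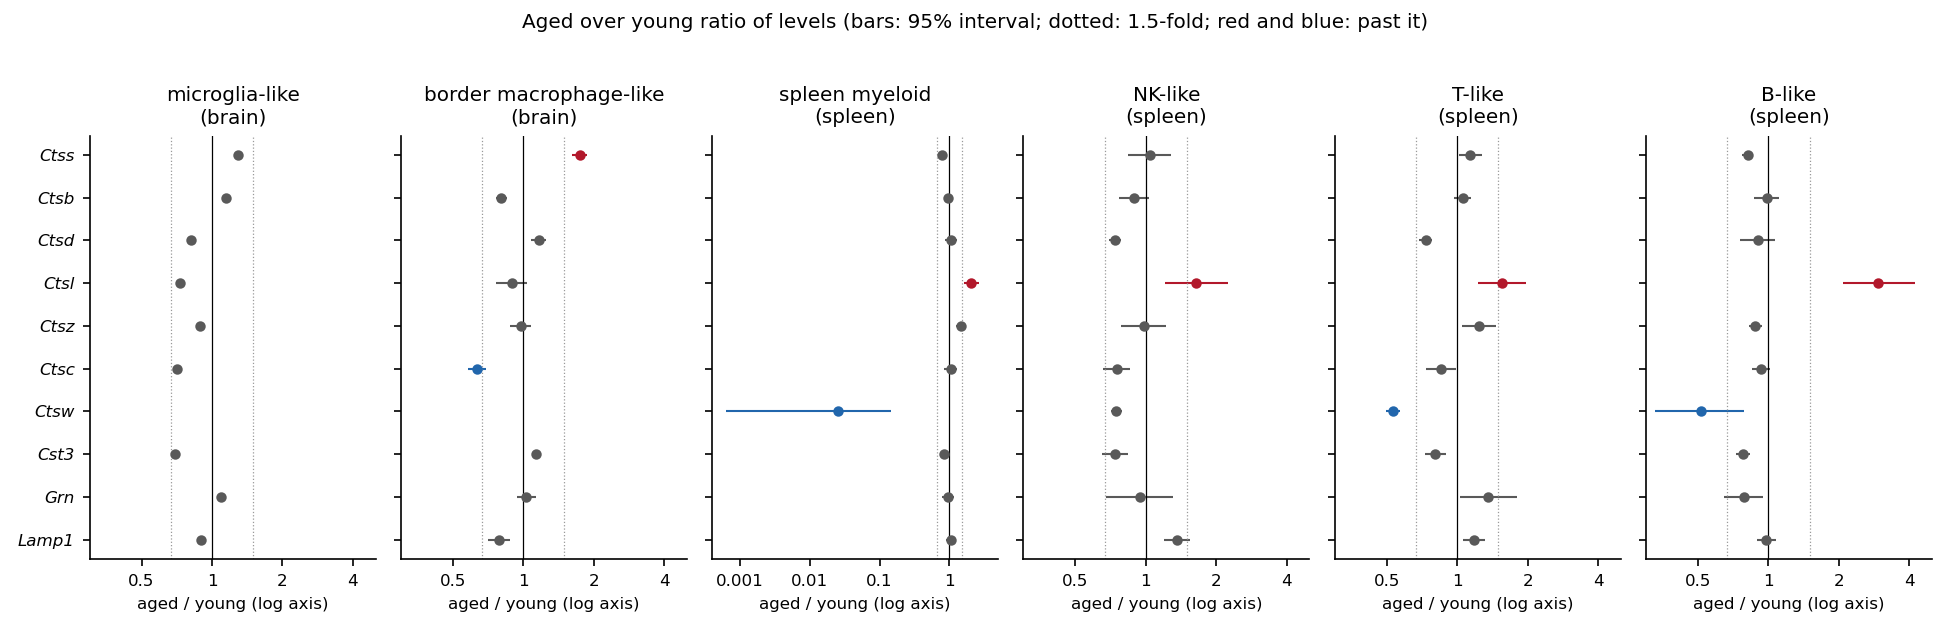
Ratio of aged to young level for each member in 6 classes (log axis; the spleen myeloid panel has a wider axis), with 95% intervals as bars, dotted lines at 1.5-fold, and red and blue for members past it upwards and downwards. In the spleen Ctsl is past the line upwards in all 4 classes (in spleen myeloid cells with a direction that 4 alternative settings turn), and in the brain Ctss is past it in border macrophage-like cells only.

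Ctsl had 20.01 (15.8 to 24.9) CPM in aged and 12.2 (9.84 to 14.9) in young NK-like cells, a ratio of 1.65 (1.21 to 2.24). T-like cells held 19.9 and 12.8, a ratio of 1.55 (1.23 to 1.96), while B-like cells had 13.8 and 4.69, a ratio of 2.95 (2.08 to 4.23). The aged library was higher in each class. Ambient RNA, read from barcodes with at most 100 UMIs, held Ctsl at 22.7 CPM in aged and 16.5 in young spleen. The 12 B cell markers stood in NK-like cells at 4.01% and 4.45% of their ambient level and in T-like cells at 3.49% and 3.71%. The 12 NK markers stood in B-like cells at 3.74% and 3.68%. At these shares ambient RNA sets Ctsl in B-like cells at 0.848 and 0.607 CPM, and the observed levels were 16.3 (12.4 to 21.4) and 7.72 (5.17 to 11.5) times as high. In NK-like cells they were 22.0 (16.2 to 29.8) and 16.6 (11.9 to 23.1) times as high. Ctsl in spleen lymphocytes was thus low, but above the level that these marker shares set in both ages. The part of ambient RNA in its ratios was not tested. Without the barcodes found in several libraries (70 NK-like, 133 T-like and 196 B-like aged cells remained) its ratio was 1.25, 1.72 and 3.22 in the 3 classes. Over the alternative settings Ctsl ranged from 1.16 to 1.79 in NK-like, 1.37 to 1.72 in T-like and 2.61 to 5.24 in B-like cells, above 1 throughout. In NK-like cells it was under 1.5-fold with classes by marker UMIs (the lowest value), thinned to 1000 UMIs, at 1.49, and without barcodes found in several libraries (value above). In T-like cells it was under 1.5-fold with a mitochondrial limit of 5% (the lowest value) and with per-cell CPM, at 1.46, and its interval included 1 when thinned and without barcodes found in several libraries. In B-like cells Ctsl was no longer called when cells were thinned to 1000 UMIs. Ctsl was above 1 in 14 of the 15 spleen clusters with at least 20 cells in both libraries, with an interval above 1 in 7 and below 1 in 0. The largest levels among them were 361 and 202 CPM in the monocyte-like cluster.

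Ctsw in T-like cells was 121 (114 to 128) CPM in aged and 227 (217 to 237) in young spleen, a ratio of 0.533 (0.496 to 0.572). NK-like cells had a ratio of 0.749 (0.707 to 0.794), short of 1.5-fold, and B-like cells, with 33 and 72 UMIs, 0.513 (0.329 to 0.786). The makeup of the T-like class differed between ages: cluster 7, led by Ctla4, Izumo1r and Foxp3, held 615 aged and 165 young cells, and cluster 10, led by Cxcr6 and Zbtb16, held 201 and 630. Inside these clusters Ctsw was 26.3 and 48.6 CPM in cluster 7, a ratio of 0.541 (0.376 to 0.789), and 213 and 349 in cluster 10, a ratio of 0.609 (0.524 to 0.706). The other 2 large T-like clusters, led by Cd8b1 (cluster 6) and by Ly6c2 and Trdc (cluster 11), gave 0.834 (0.671 to 1.04) and 0.801 (0.722 to 0.889). Ctsw was thus lower in the aged library within each of these 4 clusters, with an interval below 1 in 3, by less than in the class as a whole in clusters 6, 10 and 11. Both spleen NK-like clusters gave nearly the same ratio, 0.771 (0.719 to 0.826) in cluster 3, led by Gzma, and 0.772 (0.670 to 0.889) in cluster 8, led by Cd7 and Xcl1. Without barcodes found in several libraries the class ratios were 0.398 in T-like and 0.752 in NK-like cells. In B-like cells Ctsw stood at the level ambient RNA sets, at 0.978 (0.665 to 1.39) and 0.860 (0.667 to 1.09) times that level in the aged and young spleen, and ambient RNA itself held 103 and 232 CPM. The source of the Ctsw UMIs in B-like cells, and of their ratio, was not tested.

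**Figure D4:**
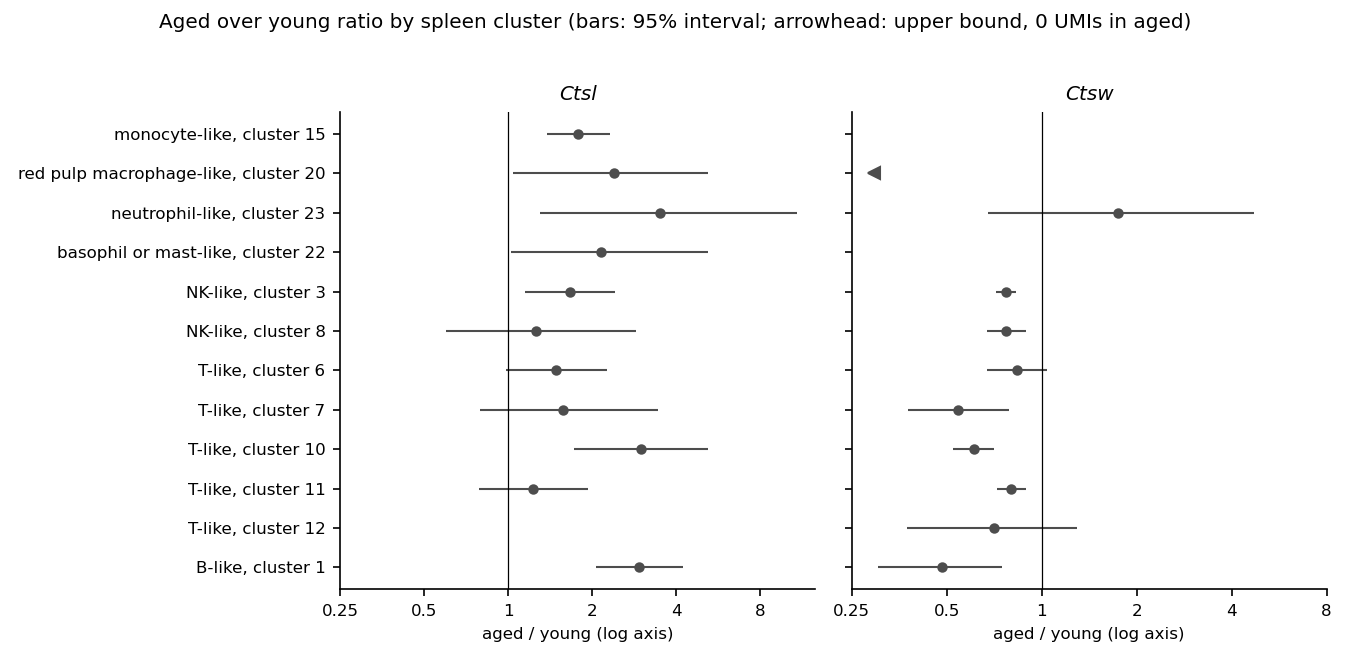
Aged over young ratio of Ctsl (left) and Ctsw (right) within spleen clusters that hold at least 20 UMIs of the gene (log axis), with 95% intervals as bars and an arrowhead for the upper bound where the aged cells hold 0 UMIs. Ctsl lies above 1 in every cluster shown, and Ctsw lies below 1 in every NK-like, T-like and B-like cluster shown.

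Ctsd was lower in the aged library in NK-like cells, at 389.9 against 526 CPM and a ratio of 0.742 (0.699 to 0.787), and in T-like cells, at 150.1 against 205 and 0.733 (0.685 to 0.785). Ctsc, the activator of granzymes, had 0.751 (0.655 to 0.860) in NK-like and 0.853 (0.736 to 0.989) in T-like cells. Lamp1 was on the other side of 1, at 1.36 (1.19 to 1.54) in NK-like and 1.18 (1.06 to 1.31) in T-like cells. None of these reached 1.5-fold. Within the T-like clusters 6, 7 and 10 Ctsd had 0.879 (0.749 to 1.03), 0.919 (0.752 to 1.13) and 0.938 (0.812 to 1.08), with intervals that include 1, and in cluster 11 0.740 (0.656 to 0.834), so the class ratio stands beside the different makeup of the class given above. Within these 4 clusters the intervals of Lamp1 and Ctsc included 1 as well. Cst3 was lower in aged NK-like, T-like and B-like cells, at 0.740, 0.807 and 0.779. Ctss was lower in aged B-like cells, at 276 against 339 CPM and 0.815 (0.773 to 0.859), and had 1.14 (1.02 to 1.27) in T-like cells as a class. Within each T-like cluster, however, Ctss was below 1: 0.779 (0.633 to 0.964) in cluster 7, and 0.939, 0.906 and 0.876 in clusters 6, 10 and 11 with intervals that include 1, and 1 against 4 UMIs in the small cluster 12. The class ratio above 1 was thus seen in none of its clusters, whose shares of the class differed between ages. Ctsz had 0.881 (0.823 to 0.943) in B-like and 1.24 (1.05 to 1.46) in T-like cells, and Grn 0.784 (0.645 to 0.951) and 1.36 (1.03 to 1.81). Within T-like clusters 6, 7, 10 and 11 the intervals of Ctsz included 1, and Grn had 0.701 and 0.758 in clusters 6 and 7, with intervals that include 1, and 2.81 (1.63 to 4.81) and 2.76 (1.17 to 7.54) in clusters 10 and 11. Ctsb had intervals that include 1 in all 3 lymphocyte classes, from 0.890 to 1.06. Without barcodes found in several libraries Ctss had 0.677 in B-like and 1.51 in T-like cells, further from 1 in both, and Grn 0.953 and 3.23. In T-like cells the same setting turned the direction of Ctsc, to 1.19, and of Cst3, to 1.12.

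The spleen myeloid class was small, 157 aged and 230 young cells with median depths of 997 and 1229 UMIs, and was made of a monocyte-like cluster (102 and 100 cells) and a red pulp macrophage-like cluster (55 and 130). Ctsl stood at 343 (292 to 401) CPM in aged and 166 (139 to 198) in young spleen, a ratio of 2.07 (1.63 to 2.63). Of the 160 aged Ctsl UMIs 150 came from 29 cells of 1 sub-cluster, led by Chil3, Fn1 and F13a1, and of the 128 young UMIs 108 came from 55 cells of it. Weighting cells equally, or thinning them to 1000 UMIs, turned the direction of Ctsl, to 0.886 and 0.992, as did leaving out barcodes found in several libraries, to 0.697 with 134 aged cells. Ctsw had 1 UMI in aged and 66 in young cells; 59 of the 66 came from 24 young cells of the red pulp macrophage-like cluster in which Gzma, Prf1 and Nkg7 lead, and without this sub-cluster 1 and 7 UMIs remained. Its ratio was 0.0251 (0.000625 to 0.145) in the whole class and 0.194 without these cells, the latter with an interval that includes 1.

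Monocyte-like cells, taken alone, had Ctsd at 271 CPM in aged and 102 in young spleen, a ratio of 2.66 (1.91 to 3.75), and Ctsl at 361 and 202, a ratio of 1.79 (1.38 to 2.31). Ctsz had 1.40 (1.16 to 1.69) there. The class differed in makeup between ages: the sub-cluster led by Chil3, Fn1 and F13a1 held 29 aged and 55 young cells, and the 2 sub-clusters high in Cst3, which scored highest for dendritic cell markers, held 63 and 16 aged and 36 and 11 young cells. In the sub-cluster led by Chil3, 18 aged cells with a UMI held 112 Ctsd UMIs and 24 young cells held 50, which is 350.1 and 112 CPM. Ctss and Cst3 were lower in the aged cells, at 779 against 1147 CPM and 3301 against 4858, ratios of 0.679 (0.592 to 0.779) and 0.680 (0.636 to 0.726). The direction of Ctss in these monocyte-like cells was the opposite of its direction in brain macrophages. In the whole myeloid class Cst3 turned from 0.844 to 1.27 without barcodes found in several libraries and to 1.01 with per-cell CPM. Ctsz, at 1.48 in the class, was 0.817 in the red pulp macrophage-like cells without the sub-cluster led by NK genes. These red pulp macrophage-like cells had Ctsb at 5291 (4669 to 5972) CPM in 54 aged and 4740.0 (4321 to 5189) in 106 young cells, with intervals that overlap; with that sub-cluster the values were 5107 and 2534. Neutrophil markers summed to 1999 and 248 CPM in the aged and young myeloid class, and erythroid markers to 395 and 1779; their part in the member ratios was not tested.

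Lymphocytes of the aged brain were compared with those of the aged spleen, and then with the ambient RNA of their own library. In NK-like cells (86 of the aged brain, 816 of the aged spleen) 9 of the 10 members were past 1.5-fold higher in the brain, where 12.9% of 7158 genes were. Cst3 stood at 5227 CPM in the brain and 82.6 in the spleen, a ratio of 63.3 (56.1 to 71.6), Ctss at 1318 and 36.0, a ratio of 36.7 (30.1 to 44.8), and Grn at 277 and 14.4, a ratio of 19.2 (13.5 to 27.5). These 3 are genes that brain macrophages express at high levels. Ctsz, Ctsb, Ctsl and Ctsd had ratios of 10.5, 8.17, 8.10 and 4.43, and Lamp1 one of 2.19. Ctsw, the gene of NK-like cells themselves, had 648 (557 to 750.4) CPM in the brain and 405 (385 to 425) in the spleen, a ratio of 1.60 (1.37 to 1.87). Ctsc, at 1.48 (0.991 to 2.15), was the one not past the threshold. T-like cells (27 and 1698) gave 9 of 10 as well, where 9.28% of 8881 genes passed, with Cst3 at 32.9, Ctss at 8.39 and Ctsw at 3.73 (2.52 to 5.32), and with Lamp1, at 1.31 (0.526 to 2.72), not past it. Over the alternative settings the ratio of Cst3 in NK-like cells ranged from 31.0 to 85.7 and that of Ctss from 20.4 to 45.5, the lowest with a minimum of 1000 UMIs per cell. Without barcodes found in several libraries, which left 70 aged spleen NK-like and 133 T-like cells, 8 and 5 of the 10 members passed, with Cst3 at 85.7 and 23.98 and Ctss at 37.1 and 6.38. The share of all genes that passed was not counted for this setting. Most aged brain NK-like cells (69 of 86) formed their own cluster, led by Gzmc and Itga1, and the spleen cells fell into clusters 3 and 8.

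The same aged brain NK-like cells carried microglial RNA: 12 microglial reference genes, among them P2ry12, Tmem119 and C1qa, summed to 6859 CPM, and all 86 cells had a UMI of at least 1 of them, against 17.0 CPM in aged spleen NK-like cells. In ambient RNA of the aged brain (998083 barcodes of at most 100 UMIs, 1839053 UMIs in all) these genes summed to 23383 CPM, so the NK-like cells held 29.3% of the ambient level. RNA of 1 source keeps its genes in 1 ratio, so this share of each member's own ambient level is the level that ambient RNA would set in NK-like cells. Cst3 was observed at 5227 CPM where ambient RNA set 5364, a quotient of 0.974 (0.924 to 1.03). Grn, Ctsz and Ctsl gave 0.988 (0.776 to 1.24), 0.954 (0.766 to 1.18) and 0.751 (0.545 to 1.01). For these 4 members, whose levels in brain NK-like cells were far above the spleen, no level beyond the one set by ambient RNA was detectable at this depth.

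In all, 6 members were above the level that ambient RNA set in NK-like cells. The share of all genes above such a level was not counted, here or for T-like cells below. These numbers therefore describe single members and not the members as a set. Ctsw was far above it, at 648 against 8.93 CPM, a quotient of 72.6 (53.5 to 99.8). The others were closer: Lamp1 at 1.67 (1.28 to 2.16), Ctss at 1.62 (1.45 to 1.80), Ctsb at 1.57 (1.32 to 1.86), Ctsc at 1.57 (1.05 to 2.26) and Ctsd at 1.51 (1.37 to 1.65). The amount over the set level was 504 (372 to 646) CPM for Ctss, where the spleen level was 36.0, and 579 (428 to 741) for Ctsd, where the spleen level was 389.9. For Ctsw it was 639.5 (548 to 741) over a spleen level of 405, and for Ctsb 192 over 64.9. Lamp1 and Ctsc had 92.7 and 40.5 CPM over the set level, with intervals of 39.7 to 157 and 4.74 to 87.4 that contain their spleen levels of 105 and 75.2. The intervals of these amounts take the set level as fixed and leave out its own counting error. The amounts are CPM over all UMIs of the brain cells, ambient RNA included. They were not rescaled to the remaining UMIs before they were set beside the spleen levels. With ambient barcodes of at most 100 UMIs, the 4 members at the set level thus showed no amount over ambient RNA. On this scale Lamp1 and Ctsc showed an amount near their spleen level, and Ctss, Ctsd, Ctsb and Ctsw an amount above it.

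**Figure D5:**
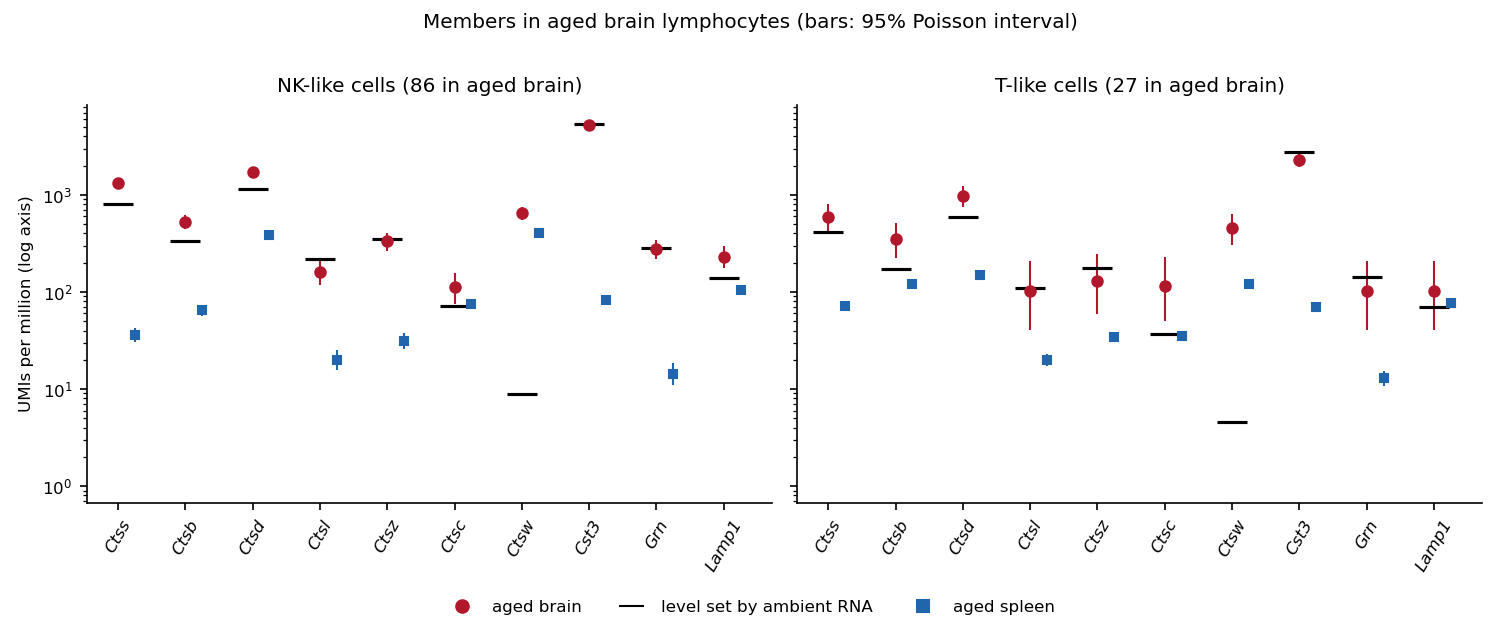
Levels of the 10 members in CPM (log axis) in NK-like (left) and T-like (right) cells of the aged brain (circles) and aged spleen (squares), with 95% Poisson intervals as bars; the black line is the level set by ambient RNA. Cst3, Grn, Ctsz and Ctsl of the NK-like cells sit at their lines or, for Ctsl, under it with an interval that reaches it, and Ctsw sits far above.

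This result leaned on which barcodes stand for ambient RNA. With barcodes of 10 to 100 UMIs only, 2 of the 10 members remained above the set level in NK-like cells, Ctsw at 8.43 (5.97 to 12.1) and Ctsd at 1.31 (1.16 to 1.47), while Ctss gave 1.07 (0.94 to 1.22) and Ctsb 1.03 (0.834 to 1.26). Whether the amount of Ctsd over this higher set level still exceeds its spleen level was not tested. With microglia-like cells as the source of stray RNA in place of ambient barcodes 6 of 10 were above. The same quotient can be set beside other cells of the aged brain: Ctss stood at 1.37 (1.21 to 1.54) in neutrophil-like, 1.37 (1.23 to 1.52) in erythroid-like and 1.25 (1.20 to 1.3) in endothelial-like cells. Ctsw was at 0 UMIs in neutrophil-like and erythroid-like cells and at 0.230 (0.109 to 0.444) in endothelial-like cells. T-like cells (27) had 5 members above the set level, with Ctsw at 98.4 (61.3 to 155), Ctsc at 3.19 (1.37 to 6.34), Ctsb at 2.02 (1.29 to 3.01), Ctsd at 1.66 (1.28 to 2.11) and Ctss at 1.43 (1.02 to 1.94), and Cst3 below it, at 0.830 (0.705 to 0.970). With ambient barcodes of 10 to 100 UMIs Ctsw, at 11.4 (6.92 to 18.7), and Ctsd, at 1.44 (1.10 to 1.85), were above it in T-like cells, while Ctsc, at 2.28 (0.936 to 4.82), Ctsb, at 1.32, Ctss, at 0.944, and Cst3, at 0.877, had intervals that include 1. The 2 B-like cells held 5 Ctss and 12 Cst3 UMIs and no Ctsw UMI, too few to compare.

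The young brain held 15 NK-like cells after barcodes shared with the aged spleen were left out. Their Ctsw, at 908 (621 to 1282) CPM, and Ctsd, at 1249 (908 to 1677), lay above the ambient level by 133 (87.9 to 197) and 3.77 (2.74 to 5.07), while Cst3, at 2214 CPM, gave 1.06 (0.841 to 1.33) and Ctss, with 9 UMIs, 1.62 (0.738 to 3.07). Grn had 0 UMIs, which allows up to 85.2 CPM at 3 counts. Ambient RNA of the young brain library includes barcodes shared with the spleen, whose part was not tested.

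The other genes of the lysosome, 109 in 7 lists (other cathepsins, cystatins, hydrolases, cofactors and sorting factors, membrane glycoproteins, the V-ATPase proton pump, and regulators), split in both directions in microglia-like cells. Of 95 with enough UMIs, 10 were past 1.5-fold higher and 6 lower in the aged brain, where 11.5% and 4.36% of all genes were, with a median log2 ratio of 0.02 beside 0.09 over all genes. Cofactors and sorting factors held 6 of the 10: Psap, the precursor of the saposins that present lipids to hydrolases, had 1751 and 983 CPM, a ratio of 1.78 (1.73 to 1.83), and M6pr and Sort1, receptors that carry hydrolases to the lysosome, had 1.71 and 1.67. Among hydrolases Idua, which degrades glycosaminoglycans, was higher, at 1.74, and Hexa, a subunit of beta-hexosaminidase, and Asah1, acid ceramidase, were lower, at 0.636 (0.614 to 0.659) and 0.658. Lgmn, the asparaginyl protease that processes cathepsins, had 1619 and 2724 CPM, a ratio of 0.594 (0.583 to 0.606), lower than that of any cathepsin among the members. In the V-ATPase list Atp6v0c was higher, at 2.54, and Atp6ap2 lower, at 0.608, of 16 compared.

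Border macrophage-like cells had 8 of 89 past 1.5-fold higher and 13 lower, where 9.62% and 6.85% of all genes were, with a median log2 ratio of -0.10 beside 0.05. Psap, at 2.28 (2.02 to 2.58), was again higher, and Hexa, at 0.522 (0.465 to 0.587), and Asah1, at 0.654, were again lower. The proton pump list had 3 genes lower and 0 higher of 15, led by Atp6v1a at 0.488 (0.372 to 0.645), and the nutrient-sensing list had Lamtor2 at 0.520 and Rragc at 0.519.

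In the spleen the lists gave 4 higher and 8 lower of 88 in NK-like cells (all genes: 6.57% and 9.64%) and 3 and 10 of 92 in T-like cells (7.61% and 8.26%). B-like cells gave 3 of 89 in either direction (13.7%) and myeloid cells 4 and 5 of 59 (6.71% and 7.92%). Cln3, a lysosomal membrane protein of which loss causes a childhood storage disease, was lower in aged NK-like cells, at 0.495 (0.422 to 0.579), and in T-like cells, at 0.437 (0.381 to 0.50). Cd63, a tetraspanin of lysosomes and granules, was higher in aged NK-like cells, at 13.2 against 1.79 CPM, a ratio of 7.35 (4.01 to 14.4). Lamtor4, a subunit of the complex that anchors mTORC1 at lysosomes, was lower in T-like and B-like cells, at 0.635 and 0.641. Between NK-like cells of the aged brain and aged spleen 28 of 75 were higher and 4 lower (12.9% and 13.2% of all genes), among them Lgmn, at 125, and Ctsh, at 45.9, next to the microglial RNA described above. Lower in the brain cells were Gla, at 0.102 (0.00257 to 0.579), and Tfeb, at 0.130 (0.00327 to 0.742), each resting on 1 UMI in the brain. T-like cells gave 12 and 0 of 85 (6.29% and 2.98%).

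Correlations between members across cells of 1 class were low. Most members had few UMIs per cell, so such values cannot tell separate from joint variation. In aged microglia-like cells thinned to 1000 UMIs, Spearman correlations between members ranged from -0.0182 to 0.175, the highest for Ctss with Cst3, and in young ones from -0.0599 to 0.190, for Ctsb with Ctsd. Border macrophage-like cells showed more: Ctsb with Ctsd had 0.240 in 790 aged and 0.451 in 172 young cells, while Ctss was weakly negative with Ctsb in the aged (-0.130) and with Ctsd in the young library (-0.220). These cells share a library and counts per cell were low, so the values are a description. Over aged microglia-like cells the variance of Cst3 was 3.46 times the mean, against 1.52 for Ctss and 1.03 for Lamp1. At an equal relative spread this quotient rises with the mean, which was 27.7, 5.90 and 0.756 per 1000 UMIs. It therefore does not rank the members by their spread between cells.

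Over the 13 class-by-library units with at least 50 cells, the genes whose log2 level followed each member most closely were found among 5651 genes by Pearson's r. For Ctsw these were Fasl (0.994), Sytl2 (0.99) and Klrc1 (0.989), genes of cytotoxic lymphocytes. For Ctss they were Marcks (0.989), Pld4 (0.987) and Tlr7 (0.986), for Ctsb Lipa (0.995), App (0.991) and Cd68 (0.988), and for Cst3 Plxnb2 (0.991), Zfp710 (0.989) and Csf1r (0.988). Grn was followed by Aif1 (0.995), Cd300c2 (0.993) and Asah1 (0.992), Lamp1 by Cd68 (0.992), Asah1 (0.991) and Cd300c2 (0.989) and Ctsz by Marcks (0.996), Pld4 (0.988) and Lgmn (0.986), with Cd68, Asah1, Lipa and Lgmn being lysosomal genes themselves. Ctsl was followed by Basp1 (0.988) and Tmed3 (0.987), Ctsd by Mb21d1 (0.978), Cyth4 (0.976) and Pigk (0.974) and Ctsc by Ehd4 (0.977), Necap2 (0.965) and Tlr4 (0.962). The 13 units share libraries and depth, so these coefficients are a description of likeness.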

How the data were processed

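The deposited matrices hold whole UMI counts per gene and barcode for 4 libraries, and the authors made them with Cell Ranger, per the file headers version 3.1.0, while the submitters' processing notes name version 1.3.1 and the human build GRCh38. The gene identifiers are those of the mouse: 30934 of 31053 (99.6%) stand in GENCODE M21 (GRCm38), from which positions were taken. Cells were called against an ambient profile (false discovery rate 0.01, 10000 simulations) and kept with at least 500 UMIs, 250 genes and at most 10% mitochondrial UMIs. Doublets were removed with Scrublet: its own threshold in the spleens (206 and 242 cells), and in the brains, where it marked 0 and 5, the highest scores at 0.8% per 1000 cells (1014 and 608). Cells of the 4 libraries were clustered together (2000 variable genes without the 10 members and the lysosomal lists, 30 components, 15 neighbours, Leiden resolution 1.0; python 3.11.15, scanpy 1.11.5, numpy 2.4.6, scipy 1.17.1, igraph 0.11.9) and named from marker lists. Levels are summed UMIs per class with exact Poisson intervals, ratios have exact conditional binomial intervals and shares Clopper-Pearson intervals. The ratio code was tested on simulated counts. All 10 members are named; of each lysosomal list up to 3 genes per direction past 1.5-fold, by the interval bound nearest to 1; and for each member the 3 genes with the highest Pearson r of log2(CPM + 10); some genes these rules select are not reported here. Sub-clusters and cluster 19 were singled out after their values were seen. The members and lists were chosen with earlier results of these data known. Alternatives changed the scaling, depth, cell filters, doublets, clustering, thresholds, shared barcodes and ambient barcodes.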

Additional observations from a re-analysis of the deposited data

Results flagged for a closer look

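For several members the aged to young ratio lay above 1 in 1 class and below 1 in another, with both intervals leaving out 1; each class has 1 library per age, so none of these differences was tested. Among brain macrophages, Ctsb had an aged to young ratio of 1.15 in microglia-like and 0.805 in border macrophage-like cells (a quotient of 1.43), Ctsd 0.810 in microglia-like and 1.16 in border macrophage-like cells (a quotient of 0.697), and Cst3 0.696 in microglia-like and 1.13 in border macrophage-like cells (a quotient of 0.617). The border values of Ctsd and Cst3 came to just under 1 with a mitochondrial limit of 20%. Between brain macrophages and the spleen myeloid class, Ctss had 1.29 in microglia-like and 0.795 in spleen myeloid cells (a quotient of 1.62) and 1.74 in border macrophage-like and 0.795 in spleen myeloid cells (a quotient of 2.19). Ctsl had 0.729 in microglia-like and 2.07 in spleen myeloid cells (a quotient of 0.353), the latter reversed under 4 alternatives given below, and Ctsz 0.889 in microglia-like and 1.48 in spleen myeloid cells (a quotient of 0.601). Cst3 had 1.13 in border macrophage-like and 0.844 in spleen myeloid cells (a quotient of 1.34). The spleen myeloid value of Cst3 turned above 1 with per-cell CPM and without barcodes found in several libraries, and that of Ctsz below 1 in the red pulp macrophage-like cluster alone (values below). Among spleen lymphocytes, Ctss had 1.14 in T-like and 0.815 in B-like cells (a quotient of 1.40), Ctsz 1.24 in T-like and 0.881 in B-like cells (a quotient of 1.40) and Grn 1.36 in T-like and 0.784 in B-like cells (a quotient of 1.73). Within each T-like cluster Ctss was below 1, as in B-like cells, and the shares of these clusters in the class differed between ages.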

How the results depend on the processing

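The number of members past 1.5-fold moved as follows. Shares over all genes were counted for the main settings only, so these numbers have no such share beside them. In microglia-like cells it was 1 instead of 0 with median-of-ratios scaling. In border macrophage-like cells it was 1 instead of 2 with the mean of per-cell CPM and with cells thinned to 1000 UMIs, and 0 at a threshold of 2-fold. In spleen myeloid cells it was 4 instead of 2 with per-cell CPM, 0 when thinned, 1 with a mitochondrial limit of 20%, 5 with the members allowed among the variable genes, and 1 without the sub-cluster led by NK genes and in the red pulp macrophage-like cluster alone. In spleen NK-like cells it was 0 instead of 1 when thinned, with classes by marker UMIs and at 2-fold; in T-like cells 1 instead of 2 with per-cell CPM and with a mitochondrial limit of 5%, and 0 at 2-fold; in B-like cells 0 instead of 2 when thinned, and 1 with a mitochondrial limit of 5%, at 2-fold and without barcodes found in several libraries. Between T-like cells of the aged brain and aged spleen it was 5 instead of 9 without those barcodes. The number of members above the ambient level in the 115 lymphocytes of the aged brain was 2 instead of 6 with ambient barcodes of 10 to 100 UMIs. Ctsl in spleen myeloid cells reversed to 0.886 with per-cell CPM, 0.992 when thinned, 0.677 with a mitochondrial limit of 20% and 0.697 without barcodes found in several libraries. The cause of these shifts was not tested. The other 105 values of such counts stayed within 1.5 times, and of the values of single members 534 stayed within the interval of the reported ratio, 153 moved beyond it and the 4 of Ctsl above reversed. Of the first 2 kinds, 8 values crossed 1, all of members short of 1.5-fold: in border macrophage-like cells Cst3 with per-cell CPM (0.988) and, with a mitochondrial limit of 20%, Cst3 and Ctsd (0.999 and 0.999); in spleen myeloid cells Cst3 with per-cell CPM (1.01) and without barcodes found in several libraries (1.27), and Ctsz in the red pulp macrophage-like cluster alone (0.817); and in T-like spleen cells Ctsc and Cst3 without those barcodes (1.19 and 1.12). Median-of-ratios scaling moved the log2 ratio of all genes by -0.12 in NK-like and -0.13 in B-like spleen cells and by 0.24 between brain and spleen T-like cells, and by less than 0.1 elsewhere. No paired analysis was possible because each group is 1 library. Depth limits the 27 aged T-like and 15 young NK-like brain cells most; alternatives on the sub-clusters, on clusters 0 and 2 and on shared spleen barcodes were chosen after seeing the data.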

Other observations

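In the aged brain the choroid plexus-like cells (198), an epithelium that makes cerebrospinal fluid, held several members above the level set by ambient RNA: Lamp1 at 2.39 (2.08 to 2.74) times that level, Ctsb at 2.26 (2.06 to 2.47), Ctsl at 2.02 (1.79 to 2.27) and Ctsd at 1.76 (1.67 to 1.85). Endothelial-like cells (445), which line the vessels, had Ctsb at 1.18 (1.11 to 1.25) and Ctsd at 0.919 (0.887 to 0.951) times the level set by ambient RNA. Cst3, which choroid plexus is known to secrete, stood at 1.12 (1.09 to 1.16) in the choroid plexus-like cells. The 15 choroid plexus-like cells of the young brain had Lamp1 at 7.94 (5.15 to 11.7), Ctsb at 7.30 (5.49 to 9.52) and Ctsl at 5.61 (3.71 to 8.15) times that level.

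An astrocyte-like cluster of 27 aged and 33 young brain cells, which also carried the oligodendrocyte genes Mal and Mobp, had the highest Ctss ratio of the 6 brain clusters compared: Ctss had 1959 and 157 CPM, a ratio of 12.4 (8.03 to 20.2), Ctsd 2154 and 315, Ctsb 699 and 150.3, and Cst3 12719 and 6184. The part of RNA from microglia in these values was not tested.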
